A study of Mus musculus with 23 samples.

Results

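Solute carrier transporter genes were compared between microglia (MG), the macrophages inside the brain, and sdCAMs, the subdural CNS-associated macrophages at its border, in mice after stroke. The genes were chosen as the rows of the count table whose symbol has the form Slc, number, a, number, with at least 2300 counts summed over all 23 libraries. Of 33280 rows, 339 had such a symbol and 131 became members; 202 fell under the sum, and 6 (Slc2a1, Slc2a5, Slc11a1, Slc16a3, Slc40a1 and Slc48a1) were left out by name. The sum was the measured value that chose the members: just under it lay Slc19a2 with 2295 counts and Slc38a6 with 2193, and just over it Slc22a5 with 2362 and Slc25a24 with 2444. A gene high in only 1 population could therefore enter through that population. Averaged over all libraries of each population, 119 members had at least 100 counts per library in both, 6 only in MG and 6 only in sdCAMs. Those of MG were Slc7a5, Slc7a6, Slc24a3, Slc7a1, Slc25a33 and Slc66a3. Those of sdCAMs were Slc15a2, Slc26a11, Slc10a6, Slc25a24, Slc28a2 and Slc14a1.

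All animals were Ccr2creERT2/+ R26tdT/tdT mice, in which tamoxifen given at 2 mg per day from the last gavage day on turns on tdTomato in Ccr2-expressing cells, mainly monocytes, and in their progeny. They received either vehicle (CTL) or 200 mg/kg BLZ945, an inhibitor of CSF-1R that depletes brain macrophages, by gavage for 7 days, and repopulation ran for 8 weeks before a stroke was induced by a thrombin injection into the middle cerebral artery. Cells of both sexes were sorted 1 day after the stroke as MG (CD45int CD11b+ CD206-) or as sdCAMs (CD206int to high) without (tdT-) or with (tdT+) the label, after removal of Ly6C+, Ly6G+ and CD11c+ cells and of the choroid plexus. There were 5 libraries each of MG CTL, MG BLZ945, tdT- CTL and tdT- BLZ945, and 3 of tdT+ BLZ945. A CTL library came from 1 animal, whereas by the methods 2 animals were pooled for each BLZ945 sample, so pooling and treatment cannot be told apart. The library names of BLZ945 F2 carry only 1 animal number, which also stands in those of BLZ945 M1. Libraries with the same name (F1, M2 and so on) within a treatment came from the same animals, while between treatments only the name is shared. The labels give no age. The tdT label marks a history of Ccr2 expression around the tamoxifen doses, and cells whose precursors expressed Ccr2 at other times carry none.

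Solute carriers move small molecules across the plasma membrane and the membranes of organelles, without direct use of ATP. Families are grouped by sequence, and their substrates range from amino acids, peptides, sugars and carboxylates to inorganic ions, metals, nucleosides, lipids and vitamins. Most of the SLC25 family sits in the inner mitochondrial membrane, and several members, such as the lysosomal peptide transporters, serve the lysosome that brain macrophages use to digest what they take up.

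Library totals ran from 9433960 to 13276081 counts, and the members took between 0.686% and 0.994% of them. A floor of 3 counts corresponded to 0.230 to 0.334 CPM (counts scaled to a common library size, with TMM factors), and such limits cover counting error only. The sorted populations matched their labels: 8 microglia markers summed to between 21003 and 32686 CPM in MG and 1537 to 2934 in sdCAMs, and 8 sdCAM markers to between 14.4 and 53.0 in MG and 13255 to 19113 in sdCAMs. Markers of other cells differed as well. The neuron list summed to between 6.24 and 16.4 CPM in MG and 65.0 to 158 in sdCAMs, 7 astrocyte markers to between 5.75 and 17.4 in MG and 83.6 to 288 in sdCAMs, and the fibroblast and mural list to between 1.27 and 20.4 in MG and 27.5 to 82.8 in sdCAMs; their part in the results was not tested. The tdT- BLZ945 library F1 had the highest sums of the monocyte (265.5 CPM), neutrophil (74.2) and lymphocyte lists (11.3), and the neutrophil list also reached 57.9 in MG BLZ945 M1, 34.1 in MG CTL F3 and 32.2 in MG BLZ945 F3, against at most 17.7 in the others. Their part in the results was not tested. The library tdT- BLZ945 M2 detected the fewest genes, 12733, against up to 16207 elsewhere. In sorted bulk samples, fewer cells with a transcript and less transcript per cell cannot be told apart, and p-values measure the spread between these samples.

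Transport genes differed between the 2 populations about as far as other genes, and more members were lower than higher in sdCAMs. The median absolute log2 fold change was 0.47 over the members and 0.48 over all genes tested in CTL. It was 0.61 and 0.61 in tdT- cells after BLZ945 and 0.64 and 0.71 in tdT+ cells. In CTL mice, 45 of the 131 members differed at an adjusted p of 0.05 when tdT- sdCAMs were set against MG, with 21 above and 24 below the microglial level (34.4%, against 25.6% of the 12697 genes tested in edgeR's quasi-likelihood test). Of all genes tested, 15.3% were higher and 10.3% lower, so that the surplus over the background lay among the lower members. Among genes that met the same minimum sum, 27.9% were called, 15.5% higher and 12.5% lower. The median log2 fold change over the members was -0.14, against -0.01 over all genes tested, with 80 members below 0 and 51 above. For 46 members the groups did not overlap, against 26.8% of all genes tested. The 6 members detected mainly in sdCAMs were all higher there, and of the 6 detected mainly in MG 3 were called, all lower. Their choice favours these directions. Among the 119 detected in both populations 36 were called, 15 higher and 21 lower.

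After repopulation, the comparison of tdT- BLZ945 with MG BLZ945 called 54 members, 19 higher and 35 lower in sdCAMs (41.2%; background 32.4%, of which 18.3% higher and 14.1% lower; 35.5%, 19.2% and 16.3% among genes with the same minimum sum). Its median was -0.37, against -0.02 over all genes, and the groups of 43 members did not overlap, against 22% of all genes. Of the 119 members detected in both populations 43 were called, 13 higher and 30 lower, beside 35.5% of genes with the same minimum sum. Of the 6 detected mainly in MG 5 were called, all lower, and all 6 detected mainly in sdCAMs were higher. Their choice favours these directions. In this comparison 5 of 7 tested monocyte markers were called as well, 4 higher and 1 lower, with a median log2 fold change of 3.17 (0.56 in CTL, with no call). The summed list overlapped between the groups, at 38.7 to 94.7 CPM in MG BLZ945 and 13.4 to 265.5 in tdT- BLZ945, and its part in the members' values was not tested. Both comparisons called 40 members, all in the same direction, 18 higher and 22 lower, which is 88.9% of the members called in CTL and 74.1% of those called after BLZ945. These comparisons share no library. For the labelled cells, tdT+ BLZ945 against MG BLZ945 called 47 members, 17 higher and 30 lower (35.9%; background 25.2%, of which 14.6% higher and 10.6% lower; 29.1% among genes with the same minimum sum). That comparison uses the same MG BLZ945 libraries as the one before. Of the 119 members detected in both populations it called 39, 12 higher and 27 lower. It also called 3 members detected mainly in MG, all lower, and 5 detected mainly in sdCAMs, all higher.

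**Figure D1:**
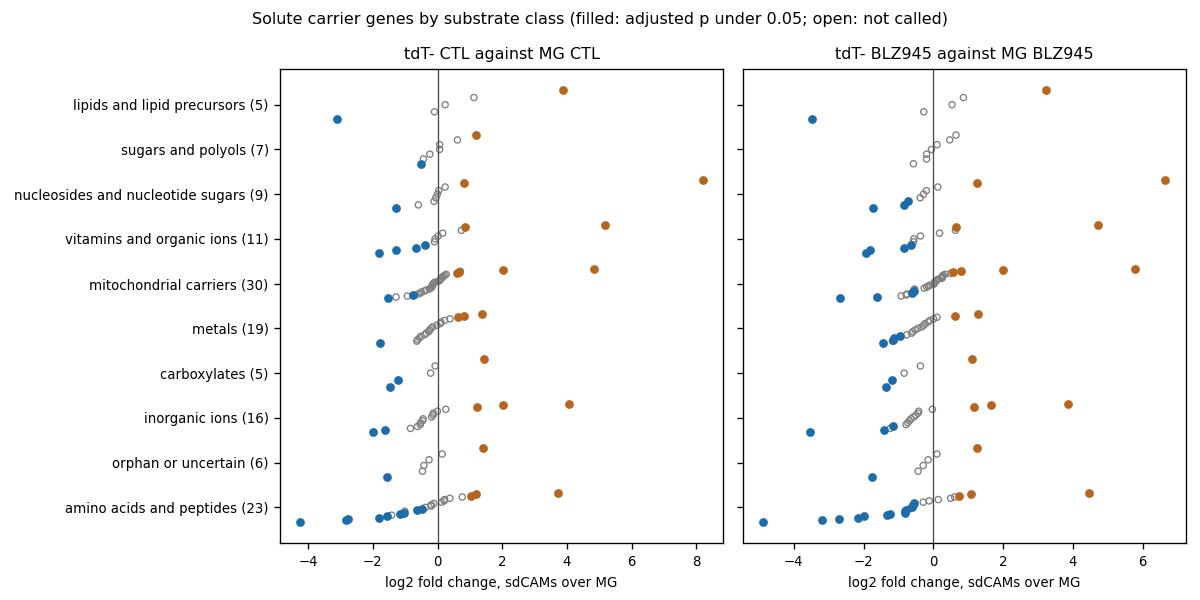
Log2 fold change of every member between tdT- sdCAMs and MG, by substrate class, in CTL mice and after BLZ945 (filled points called at an adjusted p of 0.05, open points not called, brown higher and blue lower in sdCAMs). Amino acid transporters lie mostly below 0, with 9 called lower and 3 higher in CTL and 13 lower and 3 higher after BLZ945, whereas the 30 mitochondrial carriers have a median near 0, spread to both sides of it, and have 6 and 8 called.

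Differences between sdCAMs and MG are given below as log2 fold changes, positive where sdCAMs were higher, with calls from adjusted p-values over all genes tested. By substrate, the share of members called in CTL was 60% for carboxylates, 54.5% for vitamins and organic ions, 52.2% for amino acids and peptides, 31.3% for inorganic ions, 21.1% for metals and 20% for mitochondrial carriers, beside the 25.6% of all genes. After BLZ945 it was 60%, 54.5%, 69.6%, 37.5%, 31.6% and 26.7% in the same order, beside 32.4%. In tdT+ cells it was 60%, 45.5%, 52.2%, 37.5%, 26.3% and 26.7%, beside 25.2%. In the same order of comparisons, lipids had 40%, 40% and 20% called, and nucleosides and nucleotide sugars 33.3%, 55.6% and 55.6%. Sugars had 28.6%, 0% and 0%, and members without an assigned substrate 33.3% each time. Classes of 5 to 30 members are small for such shares. Of the 23 amino acid and peptide transporters, 12 were called in CTL (3 higher, 9 lower in sdCAMs), 16 after BLZ945 (3 higher, 13 lower) and 12 in labelled cells (2 higher, 10 lower), with class medians of -0.38, -0.60 and -0.65. Vitamin and organic ion transporters had 6 of 11 called in CTL (2 higher, 4 lower), 6 after BLZ945 (2 higher, 4 lower) and 5 in labelled cells (1 higher, 4 lower). Of the 5 carboxylate transporters, 3 were called in each comparison, 1 higher and 2 lower. Inorganic ion transporters had 5, 6 and 6 of 16 called, and metal transporters 4, 6 and 5 of 19. Of the 30 mitochondrial carriers 6, 8 and 8 were called. Of the 9 nucleoside and nucleotide sugar transporters 3, 5 and 5 were called. Of the 7 sugar transporters 2 were called in CTL and 0 in either BLZ945 comparison, with 1 higher and 1 lower. The 6 carriers left out by name are in none of these counts. The sugar class thus lacks Slc2a1 and Slc2a5, and its counts do not describe sugar transport as a whole.

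**Figure D2:**
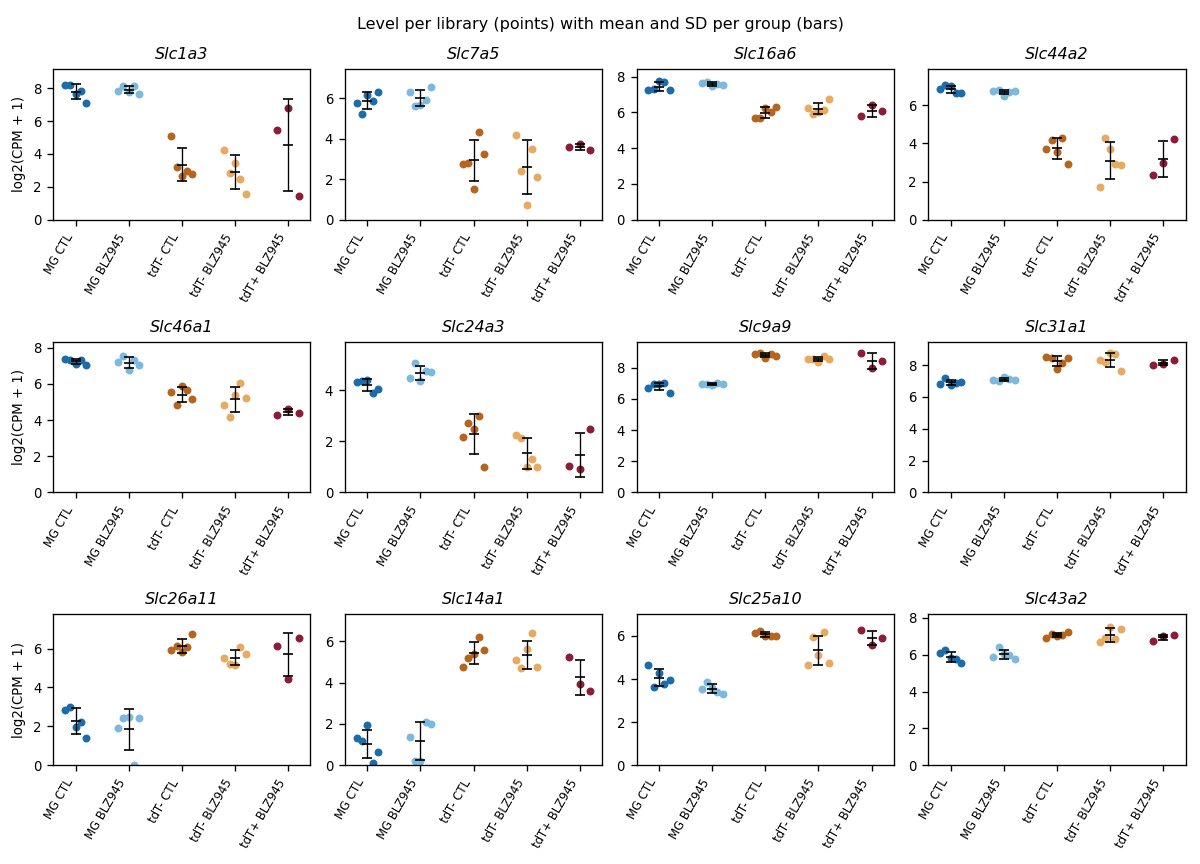
Level of 12 named members in every library, as log2 of CPM plus 1, with the mean and SD of each group. Slc1a3, Slc7a5, Slc16a6, Slc44a2, Slc46a1 and Slc24a3 were lower, and Slc9a9, Slc31a1, Slc26a11, Slc14a1, Slc25a10 and Slc43a2 higher, in tdT- sdCAMs than in MG in both treatments.

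Among amino acid transporters, Slc1a3, the glutamate and aspartate transporter GLAST, had the greatest fold difference toward MG in both tdT- comparisons. In the library order F1, F2, F3, M1 and M2, which is kept throughout (F2, F3 and M2 for tdT+), its CPM was 293, 287, 203, 224 and 137 in MG CTL and 33.8, 8.18, 5.43, 6.82 and 5.91 in tdT- CTL. No sdCAM library reached the lowest microglial one, and the difference was -4.24 on the log2 scale (SE 0.52, adjusted p = 1.43e-06). After BLZ945, MG had 228, 279.9, 216, 275.4 and 202 CPM and tdT- sdCAMs 17.9, 6.06, 9.97, 4.67 and 1.89 (log2 fold change -4.88, SE 0.54, adjusted p = 3.36e-07). In tdT+ libraries F2, F3 and M2 it was 43.0, 111 and 1.70, a wide spread in which F3 also had the highest astrocyte sum of its group, 209 CPM. The difference between tdT+ cells and MG was -2.21 on the log2 scale (SE 0.77, adjusted p = 0.0364), and adjusted p = 0.0628 when only these 2 groups entered the fit. The call was also lost without 1 library (MG BLZ945 F2 or M1 or tdT+ BLZ945 F2 or M2, adjusted p = 0.0552 to 0.115). Slc1a3 is a known astrocyte gene, and the other 7 astrocyte markers summed to more in sdCAMs than in MG; their part in the Slc1a3 values was not tested. Its mean in tdT- CTL was 5.26% of that in MG CTL, while the summed microglia markers stood at 7.40%.

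Slc7a5, the large neutral amino acid transporter LAT1, and Slc7a6, which exchanges cationic for neutral amino acids, were lower in sdCAMs as well. Both were among the members detected mainly in MG, whose choice favours this direction. Slc7a5 measured 53.1, 36.7, 70.4, 57.3 and 78.3 CPM in MG CTL and 5.81, 5.87, 1.88, 19.2 and 8.59 in tdT- CTL (log2 fold change -2.82, SE 0.58, adjusted p = 0.000833). Slc7a6 measured 21, 20.6, 28.1, 26.0 and 31.7 and 6.15, 2.86, 3.46, 4.11 and 1.86 (log2 fold change -2.78, SE 0.54, adjusted p = 0.000417). Neither gene's groups overlapped. After BLZ945 the log2 fold changes were -3.18 for Slc7a5 (adjusted p = 0.000279) and -2.70 for Slc7a6 (adjusted p = 0.000495), and in tdT+ cells -2.56 (adjusted p = 0.00729) and -2.32 (adjusted p = 0.0222, lost without 1 library: tdT+ BLZ945 F2 or F3, adjusted p = 0.0581 to 0.088). The 6 other members of the class that were lower in CTL sdCAMs, Slc7a7, Slc15a3, Slc15a4, Slc36a1, Slc38a1 and Slc38a2, had log2 fold changes between -1.80 and -0.49. They include the lysosomal peptide and histidine transporters Slc15a3 and Slc15a4 and the sodium-coupled neutral amino acid transporters Slc38a1 and Slc38a2. They were named after their values were seen.

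The amino acid class also held members that were higher in sdCAMs. Slc43a2, the neutral amino acid transporter LAT4, measured 66.9, 74.9, 55.3, 52.9 and 46.4 CPM in MG CTL and 121, 137, 128, 132 and 151 in tdT- CTL, without overlap (log2 fold change 1.18, SE 0.17, adjusted p = 1.49e-05). The difference was 1.09 after BLZ945 (adjusted p = 3.82e-05) and 0.92 in tdT+ cells (adjusted p = 0.000813). Slc15a2, the proton-coupled peptide transporter PEPT2, measured 4.13, 17.9, 17.7, 2.22 and 5.67 in MG CTL and 119, 90.8, 140.3, 150.4 and 125 in tdT- CTL (log2 fold change 3.72, SE 0.62, adjusted p = 9.04e-05), and its log2 fold change after BLZ945 was 4.46 (adjusted p = 1.86e-05). PEPT2 is known from astrocytes too, and the astrocyte sums were higher in sdCAMs; their part was not tested. Slc6a6, the taurine transporter, was higher in tdT- sdCAMs of CTL mice (120.1, 103, 110.3, 106 and 136 CPM in MG, 218, 239, 244, 227 and 251 in sdCAMs; log2 fold change 1.04, adjusted p = 9.3e-05) and after BLZ945 (0.74, adjusted p = 0.00227). In tdT+ cells it measured 161, 92.6 and 225, and the difference from MG BLZ945 was 0.02 on the log2 scale (SE 0.23, adjusted p = 0.961). The tdT+ values thus fell on both sides of the MG BLZ945 range of 136 to 217 CPM.

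Some amino acid transporters were called against MG only after BLZ945, among them Slc38a10, a transporter of the glutamine family. It measured 272.99, 273.5, 256, 194 and 285.5 CPM in MG BLZ945, 148, 134, 138, 176 and 133 in tdT- BLZ945 and 66.6, 91.8 and 144 in tdT+ BLZ945. Neither sdCAM group overlapped with MG, and the log2 fold changes were -0.80 (adjusted p = 3.74e-05) and -1.35 (adjusted p = 1.26e-05), against -0.12 in CTL (adjusted p = 0.57). The change of the population difference with treatment was -0.69 on the log2 scale (SE 0.18, adjusted p = 0.186), which did not pass. The other such members were Slc38a7, Slc38a9, Slc7a8 and Slc7a1, with log2 fold changes from -1.32 to -0.56 in tdT- cells, also named after their values were seen. In tdT+ cells the calls of Slc15a4 (adjusted p = 0.0442), Slc38a9 and Slc7a8 were lost with animals as a block, at adjusted p = 0.164, 0.0747 and 0.105.

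Carboxylate carriers of a single family stood in opposite order. Slc16a6, the monocarboxylate family member MCT7, measured 149, 157, 213, 209 and 151 CPM in MG CTL and 49.7, 50.1, 76.1, 64.3 and 78.5 in tdT- CTL, and every sdCAM library lay below every MG library (log2 fold change -1.46, SE 0.17, adjusted p = 8.02e-07). The difference after BLZ945 was -1.35 (adjusted p = 2.17e-06) and in tdT+ cells -1.49 (adjusted p = 1.01e-05). Slc16a1, the lactate and pyruvate carrier MCT1, was lower in sdCAMs at -1.22, -1.17 and -1.80 (adjusted p = 0.00877, 0.00974 and 0.0162), the last lost without 1 library (tdT+ BLZ945 F2 or F3, adjusted p = 0.0646 to 0.0667). Slc16a7, the pyruvate and lactate carrier MCT2, went the other way, with 26.8, 28.4, 24.8, 33.6 and 24.5 CPM in MG CTL and 67.9, 62.6, 64.1, 99.6 and 75.7 in tdT- CTL. Its log2 fold change was 1.43 in CTL (adjusted p = 1.68e-05), 1.11 after BLZ945 (adjusted p = 0.00029) and 1.04 in tdT+ cells (adjusted p = 0.0021).

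Among vitamin and organic ion transporters, the folate carriers were lower in sdCAMs. Slc46a1, the proton-coupled folate transporter, measured 165, 159, 138, 157 and 131 CPM in MG CTL, 46.2, 27.9, 57.0, 49.2 and 34.3 in tdT- CTL, 27.4, 17.3, 41.2, 66.2 and 36.9 in tdT- BLZ945 and 18.5, 23.4 and 20.3 in tdT+ BLZ945. None of these sdCAM libraries reached the MG range in either treatment, and the log2 fold changes against MG were -1.80 (adjusted p = 1.52e-05), -1.94 (adjusted p = 6.16e-06) and -2.82 (adjusted p = 4.49e-07). Slc19a1, the reduced folate carrier, differed by -0.68, -0.64 and -0.83 (adjusted p = 0.0216, 0.0258 and 0.16), the last not a call and the first lost without 1 library (tdT- CTL F1, adjusted p = 0.0604). Slc22a17, a receptor for the iron-binding protein lipocalin 2, was lower by log2 fold changes of -1.29, -1.82 and -1.90 (adjusted p = 0.000374, 6.91e-06 and 0.000126). Slc23a2, the ascorbate transporter SVCT2, was lower at -0.40, -0.83 and -1.46 (adjusted p = 0.0259, 4.39e-05 and 0.00015).

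In the same class, Slc14a1 and Slc17a5 were higher in sdCAMs. The urea transporter Slc14a1 measured 1.47, 1.23, 2.82, 0.0854 and 0.536 CPM in MG CTL and 25.7, 36, 41.4, 72.7 and 46.2 in tdT- CTL (log2 fold change 5.18, SE 0.73, adjusted p = 1.04e-05). After BLZ945 it measured 1.61, 0.168, 0.171, 3.28 and 3.04 in MG, 33.5, 25.5, 49.2, 82.7 and 26.4 in tdT- and 36.4, 14.3 and 11.1 in tdT+ cells, with log2 fold changes of 4.72 (adjusted p = 2.37e-05) and 3.63 (adjusted p = 0.0006). MG and sdCAM libraries did not overlap in either treatment. Astrocytes also express Slc14a1, and the part of the higher astrocyte sums in sdCAMs was not tested. Slc17a5, the lysosomal sialic acid exporter sialin, differed by 0.86 in CTL (adjusted p = 0.00634) and 0.65 after BLZ945 (adjusted p = 0.0312, lost without 1 library: MG BLZ945 F1, F3, M1 or M2 or tdT- BLZ945 M2, adjusted p = 0.0568 to 0.0723). In tdT+ cells it differed from MG by -0.26 (SE 0.27, adjusted p = 0.528).

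Inorganic ion transporters included the member with the lowest adjusted p in CTL. Slc9a9, the endosomal sodium/proton exchanger NHE9, measured 105, 121, 121, 128 and 83.8 CPM in MG CTL and 460.4, 492, 397, 478 and 434 in tdT- CTL (log2 fold change 2.03, SE 0.11, adjusted p = 1.01e-11). It measured 122, 123, 118, 127 and 123 in MG BLZ945, 374, 379, 335, 436 and 374 in tdT- BLZ945 (log2 fold change 1.64, SE 0.11, adjusted p = 2.72e-10) and 483, 247 and 341 in tdT+ BLZ945 (log2 fold change 1.54, SE 0.16, adjusted p = 6.79e-08). All 13 sdCAM libraries lay above all 10 MG libraries. Slc26a11, a sulfate and chloride transporter, measured 6.15, 7.09, 2.91, 3.76 and 1.61 CPM in MG CTL and 59.1, 69.9, 56.3, 66.7 and 105 in tdT- CTL, with log2 fold changes of 4.06, 3.86 and 4.22 (adjusted p = 6.62e-06, 1.22e-05 and 1.1e-05). Slc12a7, the potassium-chloride cotransporter KCC4, was higher at 1.22 in CTL (adjusted p = 0.00154) and 1.15 after BLZ945 (adjusted p = 0.00227), and measured 0.84 in tdT+ cells (adjusted p = 0.119).

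Other ion transporters were lower in sdCAMs. Slc12a2, the sodium-potassium-chloride cotransporter NKCC1, measured 55.2, 73.6, 66.2, 62.4 and 57.9 CPM in MG CTL, 16.8, 19.7, 16.8, 35.7 and 12.1 in tdT- CTL and 10.1, 13.7 and 4.51 in tdT+ BLZ945. Its log2 fold change against MG was -1.63 in CTL (adjusted p = 9.04e-05), -1.16 in tdT- BLZ945 (adjusted p = 0.00217) and -2.55 in tdT+ BLZ945 (adjusted p = 2.28e-05). Slc24a3, a potassium-dependent sodium/calcium exchanger, measured 19, 19.7, 20, 13.7 and 15.6 in MG CTL and 3.54, 5.56, 4.64, 6.98 and 0.972 in tdT- CTL (log2 fold change -2.01, SE 0.44, adjusted p = 0.00143), and 21.4, 32.6, 19.3, 26.0 and 24.9 in MG BLZ945 and 3.75, 3.35, 0.988, 1.46 and 1.00 in tdT- BLZ945 (log2 fold change -3.54, SE 0.47, adjusted p = 4.9e-06). The groups were apart in both treatments. Slc24a3 was among the members detected mainly in MG, whose choice favours this direction. The sulfate transporter Slc26a2 was called in tdT+ cells alone (log2 fold change -1.49, SE 0.39, adjusted p = 0.00637). Since tdT+ against tdT- cells of the same treatment called Slc10a6 only, no difference between those groups was shown for Slc26a2.

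Among the metal transporters called, both copper carriers were higher in sdCAMs, while zinc transporters were called in either direction. Slc31a1, the copper importer CTR1, measured 112, 144, 108, 115 and 122 CPM in MG CTL and 369, 351, 215, 282.3 and 344 in tdT- CTL (log2 fold change 1.38, SE 0.18, adjusted p = 3.12e-06). It was higher in sdCAMs after BLZ945 too (133, 126, 151, 138 and 130.0 in MG, 313, 290.4, 433, 412 and 195 in tdT- cells, 261, 267 and 319.5 in tdT+ cells), with log2 fold changes of 1.29 (adjusted p = 7.73e-06) and 1.06 (adjusted p = 0.000237). Its relative Slc31a2 was higher by 0.64, 0.63 and 0.79 (adjusted p = 0.00644, 0.00655 and 0.00278). Copper carriers were thus higher in sdCAMs in all 3 comparisons. Of the called zinc transporters, the importers were lower: Slc39a14 (ZIP14) differed by -1.79, -1.13 and -2.61 (adjusted p = 0.00157, 0.0292 and 0.000341), while Slc39a8 (ZIP8) was called lower after BLZ945 at -1.14 (adjusted p = 0.0133) and -2.37 (adjusted p = 0.00181), against -0.61 in CTL (adjusted p = 0.212). Slc39a6 (ZIP6) was called in tdT- BLZ945 (log2 fold change -1.44, SE 0.49, adjusted p = 0.0286). In that comparison the calls of Slc39a14 (MG BLZ945 F3 or M2 or tdT- BLZ945 F2, F3 or M1, adjusted p = 0.0638 to 0.0722) and Slc39a6 (MG BLZ945 M2 or tdT- BLZ945 F2, F3 or M1, adjusted p = 0.0544 to 0.0684) were lost without 1 library.

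Slc30a1, the zinc exporter ZnT1, was called in opposite directions, higher than MG in tdT- CTL and lower than MG in tdT+ BLZ945. It measured 7.89, 10.8, 20.8, 14.4 and 20.8 CPM in MG CTL and 27.4, 29.8, 24.2, 30.0 and 20.2 in tdT- CTL (log2 fold change 0.83, SE 0.26, adjusted p = 0.0237), but 25, 24.5, 18.6, 29.6 and 23.8 in MG BLZ945, 22.1, 15.1, 20.5, 26.4 and 15.7 in tdT- BLZ945 and 9.86, 10.5 and 13.3 in tdT+ BLZ945. The MG and tdT- ranges overlapped after BLZ945 (log2 fold change -0.27, SE 0.26, adjusted p = 0.458), and tdT+ libraries lay below both (log2 fold change -1.11, SE 0.32, adjusted p = 0.0122 against MG, adjusted p = 0.0778 with animals as a block). Without 1 library, the call in CTL (MG CTL F1 or F2 or tdT- CTL F2 or M1, adjusted p = 0.0521 to 0.0676) and that in tdT+ cells (tdT+ BLZ945 F2, adjusted p = 0.0529) were lost. The change of the tdT- to MG difference with treatment was -1.10 on the log2 scale (SE 0.37, adjusted p = 0.361).

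Of the 5 lipid transporters, 2 were called in each tdT- comparison, in opposite directions (40%, beside 25.6% of all genes in CTL and 32.4% after BLZ945). In tdT+ cells 1 was called, lower (20%, beside 25.2%). Slc44a2, a choline transporter-like protein, measured 114, 132, 128, 100.4 and 99.0 CPM in MG CTL and 12.2, 17.5, 10.9, 18.5 and 6.64 in tdT- CTL (log2 fold change -3.12, SE 0.36, adjusted p = 7.34e-07), and 106, 112, 88.8, 103 and 108 in MG BLZ945, 2.25, 18.4, 12.3, 6.62 and 6.35 in tdT- BLZ945 (log2 fold change -3.48, SE 0.37, adjusted p = 2.04e-07) and 4.12, 6.73 and 18 in tdT+ BLZ945 (log2 fold change -3.43, SE 0.51, adjusted p = 1.98e-05). All sdCAM libraries lay far below all MG libraries, at mean levels of 8.88% to 11.4% of MG, while summed microglia markers stood at 7.40% to 8.61%. Slc10a6, a transporter of sulfated steroids, measured 6.88, 3.06, 0, 0.512 and 1.91 in MG CTL and 39.4, 21.7, 26.0, 35.3 and 59.1 in tdT- CTL (log2 fold change 3.88, SE 0.69, adjusted p = 0.000166), and was higher in tdT- sdCAMs after BLZ945 (log2 fold change 3.24, SE 0.66, adjusted p = 0.000612).

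Among nucleoside transporters, a gene close to absent from MG was measured in every sdCAM library. Slc28a2, the concentrative nucleoside transporter CNT2, gave 3 counts in all over the 5 MG CTL libraries and 12 over the 5 MG BLZ945 libraries, with 3 libraries of each group at 0. In sdCAMs it measured 18.3, 36.4, 13.5, 11.9 and 10.4 CPM in tdT- CTL, 26.8, 13.4, 18.2, 26.4 and 25.3 in tdT- BLZ945 and 52.6, 55.0 and 46.0 in tdT+ BLZ945. The adjusted p against MG was 5.34e-07, 1.7e-06 and 3.2e-08, and a fitted fold change is not given, since with so few counts it depends on the prior count. Its near copy Slc28a2b had 1 count over all libraries. Slc29a1, the equilibrative nucleoside transporter ENT1, was higher in sdCAMs as well, with 114, 156, 96.2, 157 and 109.7 CPM in MG CTL, 255, 253, 201, 241 and 152 in tdT- CTL (log2 fold change 0.81, SE 0.16, adjusted p = 0.000722), 88.1, 83.2, 81.1, 83.6 and 86.8 in MG BLZ945 and 166, 171, 183, 259 and 227 in tdT- BLZ945 (log2 fold change 1.26, SE 0.17, adjusted p = 4.37e-06). The lysosomal ENT3, Slc29a3, was lower, with 128, 178, 135, 173 and 100.2 CPM in MG CTL and 59.5, 82.2, 61.0, 49.4 and 40.0 in tdT- CTL (log2 fold change -1.28, SE 0.30, adjusted p = 0.00258), and log2 fold changes of -1.74 (adjusted p = 0.000137) and -1.24 (adjusted p = 0.011, or 0.0514 with animals as a block; lost without 1 library: tdT+ BLZ945 F2, adjusted p = 0.0654). The plasma membrane and lysosomal nucleoside carriers thus stood in opposite order. Slc33a1, the acetyl-CoA transporter of the endoplasmic reticulum, and Slc35a3, a Golgi nucleotide sugar transporter, were called lower only after BLZ945, at -0.83 and -0.74 in tdT- cells (adjusted p = 0.00943 and 0.0182). In tdT+ cells Slc35a3 was at -0.83 (adjusted p = 0.0396), a call lost without 1 library (MG BLZ945 F1, F3 or M2 or tdT+ BLZ945 F2 or M2, adjusted p = 0.0684 to 0.171).

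Promoter sequences are shown for Slc28a2, Slc15a2 and Slc10a6, the members whose levels are plotted by label, from 250 bases before to 50 after the RefSeq start in GRCm38.p6, 5′ to 3′ on the gene's strand. Capitals mark AGGAAGT, the core bound by ETS factors such as the macrophage factor PU.1, on either strand. Slc28a2 lies at chr2:122426185-122426484 on the plus strand, Slc15a2 at chr16:36784913-36785212 and Slc10a6 at chr5:103629354-103629653, both on the minus strand.
Slc28a2: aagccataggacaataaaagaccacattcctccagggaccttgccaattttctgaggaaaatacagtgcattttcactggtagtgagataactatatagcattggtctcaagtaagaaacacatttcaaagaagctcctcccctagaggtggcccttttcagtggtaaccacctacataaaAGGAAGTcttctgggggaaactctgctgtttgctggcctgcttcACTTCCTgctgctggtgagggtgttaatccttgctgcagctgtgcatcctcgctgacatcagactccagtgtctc
Slc15a2: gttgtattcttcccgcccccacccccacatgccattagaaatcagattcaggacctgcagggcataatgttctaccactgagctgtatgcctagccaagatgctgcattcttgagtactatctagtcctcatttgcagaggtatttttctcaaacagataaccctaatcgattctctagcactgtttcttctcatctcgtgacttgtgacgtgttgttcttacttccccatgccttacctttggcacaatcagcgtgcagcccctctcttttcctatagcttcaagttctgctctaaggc
Slc10a6: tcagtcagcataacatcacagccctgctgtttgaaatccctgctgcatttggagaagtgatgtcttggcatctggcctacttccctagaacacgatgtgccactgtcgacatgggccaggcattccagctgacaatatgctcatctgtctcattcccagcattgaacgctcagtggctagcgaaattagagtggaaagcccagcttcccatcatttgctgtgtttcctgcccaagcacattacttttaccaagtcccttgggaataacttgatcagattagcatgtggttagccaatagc
The Slc28a2 promoter held 2 matches, which begin 69 and 25 bases before the start, and the others held none. Of the promoters of members, 5.93% held AGGAAGT, against 9.08% of promoters of all genes tested and 9.35% of all promoters. CACGTG, the E-box read by MiT/TFE lysosomal and MYC factors, occurred in 18.5% of member promoters, against 9.76% of those of all genes tested and 7.15% of all promoters. It was found in 16% of promoters of members higher in sdCAMs, 17.1% of members lower and 20.3% of the remaining members. TGATGNAA, the amino acid response element, occurred in 4.44% of member promoters, 2.39% of those of all genes tested and 3.97% of all promoters. Promoters were matched for 97 of the 131 members, and a match is a description of these letters only. Both strands were searched, and no motif contains another.

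Mitochondrial carriers had class medians near 0, -0.13, 0.02 and 0.09. Slc25a10, the dicarboxylate carrier, measured 23.8, 11.6, 18.1, 12.6 and 14.7 CPM in MG CTL and 69.8, 73.0, 62.5, 62.5 and 62.6 in tdT- CTL (log2 fold change 2.04, SE 0.28, adjusted p = 7.16e-06), with log2 fold changes of 2.00 after BLZ945 (adjusted p = 9.18e-06) and 2.47 in tdT+ cells (adjusted p = 1.16e-06). All sdCAM libraries exceeded all MG libraries. Slc25a24, a calcium-regulated ATP-Mg/phosphate carrier, had 32 counts in MG CTL, all in F2, and 18 in MG BLZ945, against 23.6, 22.7, 8.20, 14.3 and 11.7 CPM in tdT- CTL and 8.79, 46.7, 20.3, 11.2 and 0 in tdT- BLZ945 (adjusted p = 0.0102 and 0.00371). A single tdT- BLZ945 library, M2, thus had none. The phosphate carrier Slc25a3 was higher in sdCAMs at 0.62, 0.79 and 0.74 (adjusted p = 0.00189, 0.000143 and 0.000983), and the mitochondrial iron importer Slc25a28 (mitoferrin 2) at 0.65 in CTL (adjusted p = 0.0266). Slc25a39, the mitochondrial glutathione carrier, was higher after BLZ945 at 0.55 in tdT- cells and 0.75 in tdT+ cells (adjusted p = 0.00475 and 0.00119). Slc25a25, another ATP-Mg/phosphate carrier, was lower in tdT- sdCAMs, with 31.9, 39.8, 49.7, 49.7 and 46.3 CPM in MG CTL and 23.6, 10.5, 9.58, 15.2 and 16.0 in tdT- CTL (log2 fold change -1.53, SE 0.42, adjusted p = 0.00832). Slc25a45 was lower in CTL at -0.77 (adjusted p = 0.00192). Slc25a46, which acts in mitochondrial fission, was lower at -0.62 and -0.95 after BLZ945 (adjusted p = 0.0293 and 0.00884). Slc25a33, a pyrimidine nucleotide carrier, was called in tdT- BLZ945 (log2 fold change -1.60, SE 0.58, adjusted p = 0.0397; 0.0548 with animals as a block), and the peroxisomal carrier Slc25a17 in tdT+ cells (log2 fold change -0.64, SE 0.22, adjusted p = 0.0303; 0.0823 with the block). The called carriers thus lay on both sides of MG. Calls lost without 1 library were Slc25a28 in CTL (MG CTL F1 or M1 or tdT- CTL F2 or M1, adjusted p = 0.0507 to 0.0698), Slc25a33 (MG BLZ945 F1, F2, F3, M1 or M2 or tdT- BLZ945 F2, adjusted p = 0.0536 to 0.0723) and Slc25a46 (MG BLZ945 F1 or tdT- BLZ945 F2 or F3, adjusted p = 0.051 to 0.0922) in tdT- BLZ945, and Slc25a17 in tdT+ cells (MG BLZ945 M2 or tdT+ BLZ945 F2 or M2, adjusted p = 0.0558 to 0.0956).

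Of the 7 sugar transporters, which do not include Slc2a1 and Slc2a5, 2 were called in CTL and 0 after BLZ945. No change of the population difference with treatment was shown for them. In edgeR's interaction test 0 had an unadjusted p under 0.05, and the lowest adjusted p was 0.588. Slc45a4, of a sugar transporter family, measured 31.6, 22.8, 28.3, 23.6 and 22.9 CPM in MG CTL and 55.3, 66.1, 32.4, 75.5 and 63.6 in tdT- CTL (log2 fold change 1.19, SE 0.25, adjusted p = 0.00105), and differed by 0.47 after BLZ945 (adjusted p = 0.159). Slc50a1, a glucose efflux carrier, was lower in sdCAMs of CTL mice (log2 fold change -0.51, SE 0.15, adjusted p = 0.0177) and differed by -0.19 after BLZ945 (adjusted p = 0.359). Of the 6 members without an assigned substrate, Slc66a2 was higher in sdCAMs at 1.40, 1.26 and 1.73 (adjusted p = 0.000206, 0.00058 and 4.17e-05). Slc12a9 was lower, with 112, 130.5, 109.5, 131 and 123 CPM in MG CTL and 28.7, 33.7, 35.0, 57.5 and 48.8 in tdT- CTL (log2 fold change -1.56, SE 0.29, adjusted p = 0.000296), without overlap, and stood at -1.76 and -1.87 in the BLZ945 comparisons (adjusted p = 8.31e-05 and 0.000487).

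**Figure D3:**
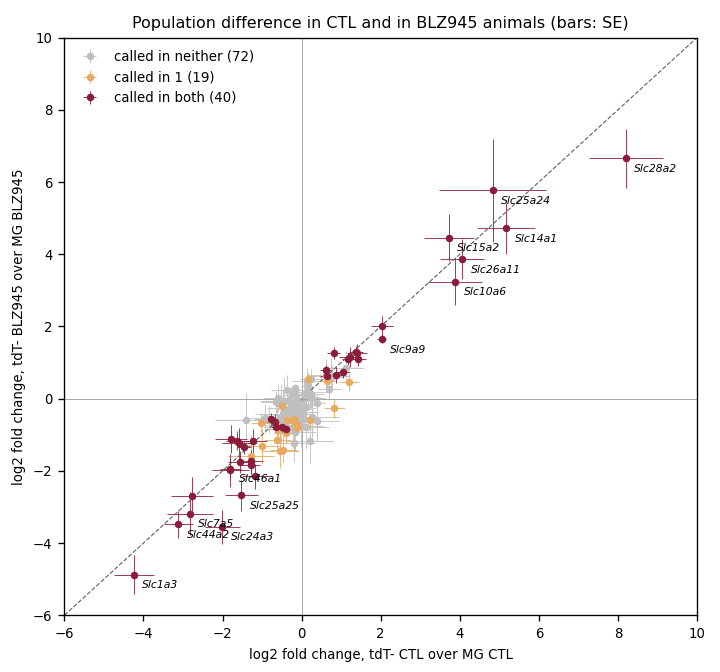
Log2 fold change of each member between tdT- sdCAMs and MG in CTL mice (x axis) and after BLZ945 (y axis), with standard errors, the dashed line marking equal values and colours showing in how many of the comparisons a member was called. The 40 members called in both lie on the same side of 0 on both axes, 19 were called in 1 comparison and 72 in neither.

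Transcript output per gene length was summed by class for the 127 members with an annotated exon length, as CPM per kilobase and as a description without a test. Inorganic ion transporters summed to 69.1 ± 1.77 (SD, n = 5) in MG CTL and 136 ± 12.5 (n = 5) in tdT- CTL, and to 74.0 ± 4.44 in MG BLZ945, 112 ± 5.95 in tdT- BLZ945 and 114 ± 23.5 in tdT+ BLZ945 (n = 3). Amino acid transporters summed to 496 ± 68.5 in MG CTL and 410 ± 28.7 in tdT- CTL, then 553 ± 38.8, 393 ± 60.6 and 359 ± 43.6 in the same order of BLZ945 groups. Slc9a9 alone made 19.6 of the ion sum in MG CTL and 79.7 in tdT- CTL, while 12 of the 16 ion transporters had a negative log2 fold change in CTL. Mitochondrial carriers gave the greatest sums in every group, 742 to 833 on average, and on this scale the adenine nucleotide carrier Slc25a5 led the members in MG CTL with 309, followed by Slc3a2, the heavy chain that partners Slc7a5 and other amino acid transporters, with 210. Slc3a2 itself did not pass in CTL (log2 fold change -0.20, SE 0.18, adjusted p = 0.512) or after BLZ945 (log2 fold change -0.29, SE 0.18, adjusted p = 0.248).

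Between the treatments no member was called within MG or within tdT- sdCAMs. In MG, BLZ945 against CTL called 0 of 129 members tested (background 0.408% of 11264 genes), by edgeR's test, with 21 below an unadjusted p of 0.05 (14 higher, 7 lower; 13.2% of all genes), and DESeq2 called 2. The median was 0.09, with 87 members above 0 and 42 below, among them 19 of 23 amino acid transporters and 16 of 19 metal transporters above 0. The monocyte list moved with treatment in MG as well, from between 9.92 and 33.6 CPM in MG CTL to between 38.7 and 94.7 in MG BLZ945, and its part in these estimates was not tested. In tdT- sdCAMs, BLZ945 against CTL called 0 of 131 (background 0%), with 9 below an unadjusted p of 0.05 (2 higher, 7 lower; 5.33% of all genes), and DESeq2 called 0. All 11 vitamin and organic ion transporters had a negative estimate there, beside 50.1% of all genes, and 1 of the 11 had an unadjusted p under 0.05. The difference between these effects, tested as an interaction, called 0 members (background 0.0394%), with 8 below an unadjusted p of 0.05 (2 higher, 6 lower; 8.69% of all genes), and DESeq2 called 1. The interaction median was -0.19, against -0.03 over all genes, with 91 of 131 members below 0.

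The member nearest to a call in MG was Slc29a1. It measured 114, 156, 96.2, 157 and 109.7 CPM in MG CTL and 88.1, 83.2, 81.1, 83.6 and 86.8 in MG BLZ945, groups that did not overlap, and the log2 fold change was -0.59 (95% interval -0.85 to -0.33, adjusted p = 0.0626). DESeq2 gave adjusted p = 0.0042 and the fit without the low-count filter 0.00869. Slc6a6 measured 120.1, 103, 110.3, 106 and 136 in MG CTL and 142, 149, 141, 217 and 136 in MG BLZ945, where the highest CTL library and the lowest BLZ945 library were nearly equal (log2 fold change 0.44, SE 0.14, adjusted p = 0.177). The next values were 0.40 for Slc38a10 (adjusted p = 0.133; DESeq2 0.0332), -0.50 for the mitochondrial iron importer Slc25a37 (adjusted p = 0.23), 0.69 for Slc30a1 (adjusted p = 0.247) and 0.49 for Slc24a3 (adjusted p = 0.257). In a single MG CTL library, M2, Slc7a11, the cystine and glutamate exchanger, stood at 59.7 CPM, against at most 10 in the other 4. Without that library, Slc7a11 (adjusted p = 0.0364), Slc29a1 (0.0352) and the zinc transporter Slc30a4 (0.0311) passed. Slc7a11 and Slc30a4 were named after their values were seen.

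In tdT- sdCAMs, the 6 lowest p-values between treatments belonged to Slc38a7, Slc15a2, Slc10a6, Slc39a14, Slc15a4 and Slc46a3, at adjusted p of 0.635 to 0.87. Slc38a7, a lysosomal glutamine exporter, measured 82.0, 71.7, 59.8, 69.7 and 79.2 CPM in tdT- CTL and 53.9, 32.5, 41.9, 60.5 and 29.8 in tdT- BLZ945 (log2 fold change -0.72, SE 0.23). Slc15a4 measured 64.8, 51.3, 41.9, 37.6 and 37.2 and 33.0, 4.22, 41.9, 21.7 and 13.2 (-1.02, SE 0.43), and Slc46a3, a lysosomal transporter, measured 78.6, 104, 86.7, 103 and 48.6 and 64.2, 59.1, 73.7, 54.1 and 24.8 (-0.60, SE 0.27). The CTL and BLZ945 ranges of all 3 genes overlapped. The remaining estimates were -0.69 for Slc15a2, 0.88 for Slc10a6 and 1.11 for Slc39a14.

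For the interaction, the lowest p-values after Slc38a10 and Slc30a1 were those of Slc38a7 (-0.80, adjusted p = 0.378), Slc25a11, the oxoglutarate carrier (0.46, adjusted p = 0.42), Slc25a4, an adenine nucleotide carrier (0.41, adjusted p = 0.431), and Slc24a3 (-1.53, adjusted p = 0.46). None passed in the edgeR test, whereas DESeq2 gave adjusted p = 0.0449 for Slc38a10.

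**Figure D4:**
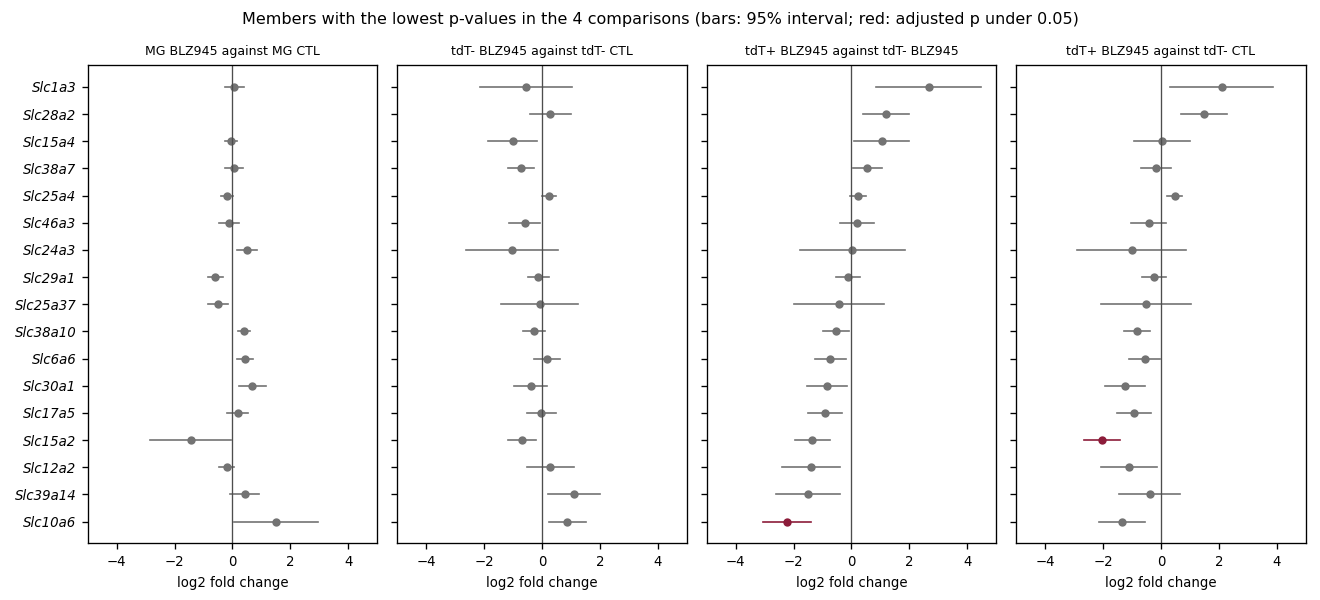
Log2 fold changes with 95% intervals of 17 named members in the repopulation comparisons: BLZ945 against CTL in MG and in tdT- sdCAMs, and tdT+ BLZ945 against tdT- BLZ945 and against tdT- CTL. The only calls, in red, are Slc10a6 (-2.23) and Slc15a2 (-2.04), both lower in tdT+ sdCAMs, of which Slc10a6 was not called with animals as a block (adjusted p = 0.517).

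Between labelled and unlabelled sdCAMs few carriers were called, and the call between cells of the same animals did not hold with the animals as a block. Against tdT- BLZ945, 1 member was called (background 0.206%) and 0 with the block, with 18 below an unadjusted p of 0.05 (7 higher, 11 lower; 6.91% of all genes) and 10 whose groups did not overlap (3.41% of all genes). Against tdT- CTL, 1 member was called (background 0.283%), with 15 below an unadjusted p of 0.05 (3 higher, 12 lower; 7.44% of all genes) and 11 without overlap (8.26% of all genes). These comparisons share the tdT+ libraries. The summed sdCAM markers also lay apart, at 13255 to 15675 CPM in tdT+ and 15977 to 19113 in all tdT- libraries, with 1 of the 8 markers called lower in each comparison, and their part in the differences below was not tested.

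Slc10a6 measured 16.3, 9.80 and 16.6 CPM in tdT+ BLZ945, 48.8, 58.6, 35.6, 102 and 84.3 in tdT- BLZ945 and 39.4, 21.7, 26.0, 35.3 and 59.1 in tdT- CTL. Every tdT+ library lay below every tdT- library, and the difference from tdT- BLZ945 was -2.23 on the log2 scale (SE 0.42, adjusted p = 0.0406, 95% interval -3.05 to -1.41). That call was lost with animals as a block (log2 fold change -2.03, adjusted p = 0.517), with all 23 libraries in the fit (adjusted p = 0.195) and without any 1 of the tdT+ libraries (0.108 to 0.228). Against tdT- CTL the difference was -1.35 on the log2 scale (SE 0.40, adjusted p = 0.324), and against MG BLZ945 it was 1.02 (SE 0.67, adjusted p = 0.288).

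Slc15a2 measured 21.5, 36.4 and 33.8 CPM in tdT+ BLZ945, 83.9, 37.5, 70.0, 86.1 and 107 in tdT- BLZ945 and 119, 90.8, 140.3, 150.4 and 125 in tdT- CTL. The tdT+ libraries lay below all tdT- libraries, and the difference from tdT- CTL was -2.04 on the log2 scale (SE 0.32, adjusted p = 0.00771, 95% interval -2.66 to -1.41), with adjusted p = 0.185 when all 23 libraries entered the fit and 0.0681 without the tdT+ library F2. Against tdT- BLZ945 it was -1.35 on the log2 scale (SE 0.31, adjusted p = 0.164), for which DESeq2 gave adjusted p = 0.00419. In the order of levels, tdT+ sdCAMs stood between MG, at 0.532 to 17.9 CPM, and tdT- sdCAMs.

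Slc28a2 was not called between sdCAM groups, although they were apart. All 3 tdT+ libraries (52.6, 55.0 and 46.0 CPM) lay above every tdT- library (10.4 to 36.4 CPM), with log2 fold changes of 1.20 against tdT- BLZ945 (adjusted p = 0.501) and 1.49 against tdT- CTL (adjusted p = 0.223; DESeq2 0.0242). Other members named by their p-values were Slc17a5 (-0.91, adjusted p = 0.497), Slc1a3 (2.67, adjusted p = 0.53) and Slc12a2 (-1.40, adjusted p = 0.572) against tdT- BLZ945. Against tdT- CTL they were Slc38a10 (-0.82, adjusted p = 0.262), Slc30a1 (-1.23, adjusted p = 0.287; DESeq2 0.01) and Slc25a4 (0.47, adjusted p = 0.339; DESeq2 0.031). By class, 9 of 11 vitamin and organic ion transporters had a negative estimate against tdT- BLZ945 and 10 of 11 against tdT- CTL. In each comparison 4 of them were under an unadjusted p of 0.05, and 51.9% of all genes had a negative estimate. The length-scaled sums of this class ran from 67.3 to 82.4 in tdT+, 70.7 to 117 in tdT- BLZ945 and 92.9 to 126 in tdT- CTL.

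**Figure D5:**
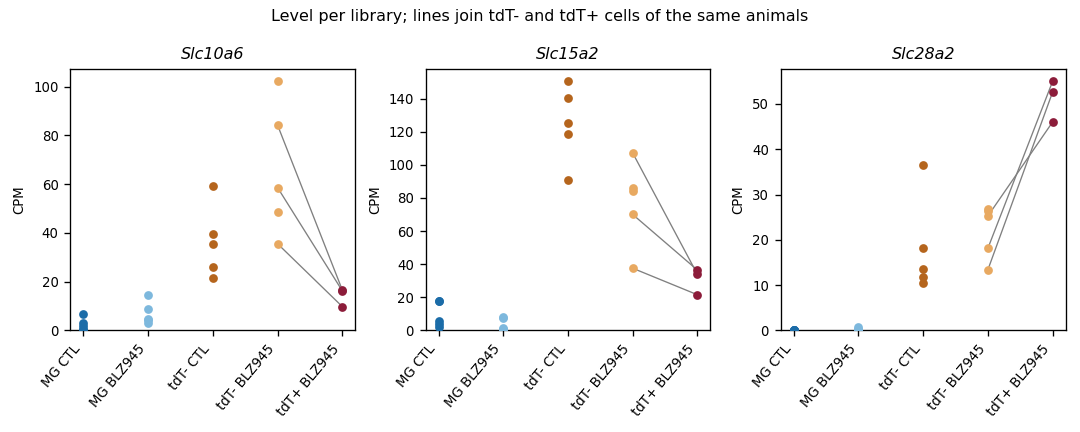
CPM of Slc10a6, Slc15a2 and Slc28a2 in every library of the 5 groups, with lines joining tdT- and tdT+ libraries of the same animals. The tdT+ libraries lie at 9.80 to 16.6 for Slc10a6 and 21.5 to 36.4 for Slc15a2, below all tdT- libraries, and at 46.0 to 55.0 for Slc28a2, above all tdT- libraries.

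Genes that work with these carriers were counted from lists chosen with earlier results known. Of 10 amino acid response genes, 6 were lower in sdCAMs in CTL and after BLZ945, beside 10.3% and 14.1% of all genes: the transcription factor Atf4 (-0.51 and -0.71 on the log2 scale), Chac1, Psat1, Phgdh, Shmt2 and Mthfd2, of which Phgdh, the first enzyme of serine synthesis, stood at -5.53 and -5.47. In tdT+ cells 6 were lower, beside 10.6% of all genes, with Trib3 in place of Shmt2, and 0 passed in the comparisons of treatment or label. Of 16 carrier partners, pumps and organic anion transporters, 9 were called in CTL (5 higher, 4 lower), beside 25.6% of all genes, among them Emb, a chaperone of monocarboxylate carriers, at 5.66, and Slco4a1, an organic anion transporter, at -5.77. The metallothioneins Mt1 and Mt2, which bind zinc and copper, were the 2 of 6 genes of the zinc and copper list called in CTL, higher in sdCAMs by 2.48 and 3.64, beside 15.3% of all genes called higher. After BLZ945, 4 of the 6 were higher in tdT- sdCAMs, beside 18.3%, and in tdT+ sdCAMs 2, beside 14.6%.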

How the data were processed

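Gene counts of 23 libraries were analysed as deposited. Per the submitters' processing notes the authors used bcl2fastq 2.20, STAR 2.7.11a, featureCounts 2.0.6 and DESeq2 1.46.0 on SMART-Seq libraries; the table holds raw counts per gene that the authors deposited without normalization. The build of the table, the strand setting and the treatment of reads with several matches are not given in the sources used here, so genes were taken by symbol, and close paralogs such as Slc25a4 and Slc25a5 and overlapping or antisense genes are uncertain. Totals of 9433960 to 13276081 counts set the precision.

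Comparisons used edgeR 4.0.16 (quasi-likelihood test, TMM, filterByExpr; R 4.3.3, limma 3.58.1), with Benjamini-Hochberg adjustment over all genes tested and a threshold of 0.05. The MG against tdT- comparisons and the interaction used 20 libraries (12697 genes), tdT+ against MG all 23 (13790), treatment within MG 10 (11264) and comparisons among sdCAMs 13 (13076). The code was tested on simulated data. Alternatives were DESeq2 1.42.0, its size factors, no filter, at least 10 counts in every library, other sets of libraries, each library left out, and the replicate name as a block. Names pair libraries within a treatment because these came from the same animals (mean correlation of deviations 0.0689 to 0.131 over pairs of groups). Between treatments they share only a name. There the mean correlation was 0.0706 in MG, -0.000651 in tdT- sdCAMs and -0.00584 for tdT- CTL with tdT+ BLZ945. The pairing thus rests on the labels, since the correlations alone do not show it.

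Members and lists were chosen with earlier results of these data known. In each comparison the text names, per substrate class and direction, up to 3 called members with the greatest fold change and at least 10 CPM in the higher group; where fewer than 6 members were called, and for the interaction, those with the 6 lowest p-values as well. Members named outside that rule were chosen after their values were seen. Summaries used Python 3.11.15, pandas 2.3.3, numpy 2.4.6 and scipy 1.17.1. Levels per kilobase used exon lengths of an annotation of GRCm38, which need not be the one behind the counts. A result that needs an item withheld for evaluation is not reported here.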

Additional observations from a re-analysis of the deposited data

Results flagged for a closer look

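Within groups of 5 libraries, the named members were checked for a library whose distance from the rest exceeds Dixon's 95% critical value on the log2(CPM + 1) scale. Of 224 pairs of group and member, 19 passed, and chance alone passes about 1 in 20. Values are CPM, with the range of the other 4 libraries.

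In MG CTL, Slc15a4 was 91.7 in M1 (others 108 to 110.2), Slc25a33 was 10.9 in F2 (22.1 to 24), and Slc25a24 was 2.80 in F2 with the others at 0. In MG BLZ945, Slc19a1 was 40.2 in M2 (26.4 to 27.7), Slc25a11 was 195 in F2 (146 to 152), Slc26a11 was 0 in M1 (2.81 to 4.52), Slc38a10 was 194 in M1 (256 to 285.5) and Slc6a6 was 217 in M1 (136 to 149).

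In tdT- CTL, Slc1a3 was 33.8 in F1 (5.43 to 8.18), and F3 stood apart for Slc16a1 at 15.4 (23.7 to 26.0), Slc25a37 at 27.8 (10.1 to 12.4) and Slc25a46 at 30.0 (50.6 to 59.1). In tdT- BLZ945, F2 stood apart for Slc25a25 at 0.865 (7.59 to 14.9), Slc25a4 at 268 (209 to 214) and Slc25a46 at 21.7 (40.1 to 49.7), and M2 for Slc23a2 at 88.1 (65.5 to 71.0), Slc29a3 at 12.5 (45.2 to 75.4) and Slc46a3 at 24.8 (54.1 to 73.7). Slc35a3 was 12.8 in M1 of that group (28.5 to 34.6).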

How the results depend on the processing

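No value of a member named by the rule in its own comparison turned its direction. Other printed values that missed the threshold could: Slc6a6 in tdT+ cells against MG BLZ945 went from 0.02 to -0.31 without tdT+ M2. Among all members the replicate block gave between 1 and 25 estimates per comparison another sign, with the 25 in tdT+ against tdT- BLZ945, and 0 of these were calls. Of the fits of single named members without 1 library, 1325 kept their side of the threshold, 56 lost a call and 5 gained one. Without a filter on low counts 6 named members lost a call (Slc19a1, Slc25a28 and Slc30a1 for tdT- against MG in CTL, Slc17a5 for tdT- against MG after BLZ945, Slc25a17 and Slc35a3 for tdT+ against MG; adjusted p = 0.0550 to 0.0701), Slc35a3 also with RLE size factors (0.0545), and Slc1a3 for tdT+ against MG when those groups were fitted alone (0.0628). The fit of all 23 libraries lost 4, Slc19a1 (0.188) and Slc25a25 (0.0533) for tdT- against MG in CTL and the Slc10a6 and Slc15a2 calls among sdCAMs, and the replicate block lost 5: Slc25a33 (0.0548) after BLZ945, Slc25a17 (0.0823), Slc29a3 (0.0514) and Slc30a1 (0.0778) for tdT+ against MG, and Slc10a6 (0.517). The members called between tdT- sdCAMs and MG in CTL, between them after BLZ945, and between tdT+ cells and MG ranged from 43 to 46, 46 to 58 and 37 to 47 when 1 library was left out, and were 48, 58 and 52 with DESeq2 and 46, 58 and 43 with the replicate block. At least 10 counts in every library left 106 members, of which 35, 43 and 41 were called.

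Calls between treatments and labels rested on the method. For MG, DESeq2 called 2 and the fit without a filter 1 (Slc29a1), and leaving out 1 library gave 0 to 3. Within tdT- sdCAMs it gave 0 to 0 and for the interaction 0 to 0, where DESeq2 called 1 (Slc38a10). For tdT+ against tdT- BLZ945, DESeq2 called 2 (Slc10a6, Slc15a2), the replicate block 0 and all 23 libraries 0. Leaving out 1 library gave 0 to 2: Slc10a6 did not pass without tdT+ F2 (adjusted p = 0.170), F3 (0.228) or M2 (0.108), or tdT- BLZ945 M1 (0.0944) or M2 (0.0761), and Slc15a2 passed as well without tdT- BLZ945 F2 (0.0132). For tdT+ against tdT- CTL, DESeq2 called 4 (Slc15a2, Slc25a4, Slc28a2 and Slc30a1), all 23 libraries 1, which was Slc38a10 (0.0376) in place of Slc15a2, and leaving out 1 library gave 0 to 2: Slc15a2 did not pass without tdT+ F2 (0.0681), while Slc28a2 (0.0422) passed as well without tdT- CTL F2 and Slc38a10 (0.0352) without tdT+ M2. For MG between treatments, Slc29a1 passed without MG CTL F3 (0.029), and 3 members without MG CTL M2. The cause of these shifts was not tested.

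The block moved no other count of calls by over 1.5 times; it moved the median of all genes by -0.177 for tdT- against MG after BLZ945, -0.15 for the interaction and -0.103 for tdT- between treatments. At 9433960 counts, the smallest library, 3 counts are the limit of detection, and 3 tdT+ libraries limit what could be called among sdCAMs.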
